A study of Rattus norvegicus with 8 samples.

Results

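Genes of the secretory granule and of regulated exocytosis were examined in fetal rat pancreatic islets. The set was a list of 32 genes for granule content, prohormone processing and release, taken at 1 probe set per gene. Of these, 31 were measured among 14506 genes on the arrays, and Pcsk1 was not analysed here. The islets came from Sprague-Dawley fetuses at embryonic day 19. Dams had been operated on at embryonic day 18, and each litter's fetuses were the offspring of either a sham operation (4 litters) or surgery that restricts fetal growth (IUGR, intrauterine growth restriction, 4 litters). Each array holds the islets of an entire litter, which is the replicate here. No cell sort and no genetic change is named in the labels. Values are log2 expression, on which a difference of 1 is a 2-fold change.

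An endocrine cell stores its hormone in dense-core granules. Granins condense the cargo at the trans-Golgi network, convertases and carboxypeptidase E trim prohormones inside the acidifying granule, and a zinc transporter loads the zinc with which insulin is packed. At the plasma membrane Rab proteins and their effectors dock the granule, priming factors make it ready, and SNARE proteins fuse it when a synaptotagmin senses calcium. Neurons, chromaffin cells of the adrenal medulla and pituitary cells share much of this machinery.

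The arrays differed in the levels of cell type markers and in range, and 1 litter stood apart for the genes described here. Gene values spread over an interquartile range of 3.53 to 3.63 on the 4 IUGR arrays and sham replicate 1, and 3.06 to 3.23 on sham replicates 2 to 4. Sham replicate 4 held the highest mean of 8 islet hormone genes, 12.42, where sham replicates 1 to 3 had 11.24 to 11.28 and the IUGR litters 11.35 to 11.73. Results that rest on that litter are therefore given with and without it. In these bulk samples a larger share of endocrine cells and more RNA per cell cannot be told apart.

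Promoters were looked at for the cAMP response element, a site for CREB family factors known from granin genes. RefSeq promoter windows (rat assembly GRCr8, 250 bases before to 50 after the transcript start) were held for 25 of the 32 genes. Chga, Pcsk1, Slc30a8, Snap25, Syt7, Syt13 and Rims2 were not among them. The palindrome TGACGTCA lay in 3 of the 25 windows, those of Scg2, Vgf and Syn1, and in 1.83% of 33469 windows of all genes. The shorter motif TGACG, which overlaps it, was found on either strand in 16 of the 25 and in 21.2% of all windows. The TATA box letters TATAAA, searched on both strands, were in 1 of the 25, that of Vgf, and in 14.2% of all windows. The 200 bases before the start of each of these 3 genes are shown because they carry the full element, with the element in capitals. They run 5′ to 3′ on the gene's strand, which is minus for Scg2 (chr9:88256867-88257066) and Vgf (chr12:25277021-25277220) and plus for Syn1 (chrX:3725545-3725744).
Scg2: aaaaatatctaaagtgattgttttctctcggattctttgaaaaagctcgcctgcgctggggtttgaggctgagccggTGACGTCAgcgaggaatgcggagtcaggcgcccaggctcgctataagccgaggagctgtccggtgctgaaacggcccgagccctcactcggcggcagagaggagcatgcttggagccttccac
Vgf: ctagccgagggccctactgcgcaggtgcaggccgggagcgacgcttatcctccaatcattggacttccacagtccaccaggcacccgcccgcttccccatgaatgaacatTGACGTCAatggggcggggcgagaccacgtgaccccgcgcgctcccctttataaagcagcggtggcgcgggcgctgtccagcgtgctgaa
Syn1: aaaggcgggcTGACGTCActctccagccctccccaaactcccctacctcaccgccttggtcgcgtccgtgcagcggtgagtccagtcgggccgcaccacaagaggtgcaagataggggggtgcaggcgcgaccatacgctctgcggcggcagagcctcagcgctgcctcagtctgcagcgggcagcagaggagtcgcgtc
The element began 123 bases before the start in Scg2, 90 in Vgf and 190 in Syn1.

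Set against each other, the IUGR and sham litters bear on whether granule and release genes differ 1 day after surgery. None of the 31 genes passed the threshold on all 8 arrays (limma, adjusted p from 0.227 to 0.973, threshold 0.05), none had an unadjusted p under 0.05, and in none did the 4 IUGR litters lie clear of the 4 sham litters. Over all 14506 genes 0.248% passed, 26.1% had an unadjusted p under 0.05 and 15.5% showed no overlap. Of the 31 genes 23 were higher in IUGR, with a median difference of 0.10 against 0.04 over all genes, where 55.1% were higher. That sign depended on scaling. The median of the 31 was -0.01 with quantile normalization. Centring each array on its median put it at -0.13 and the median of all genes at -0.19. With array weights 16 of the 31 passed, all higher, where 26.4% of all genes passed and were higher. The weights of sham replicates 1 to 4 were 0.265, 1.03, 7.82 and 0.196, so the sham side of that fit rested mostly on replicate 3.

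**Figure D1:**
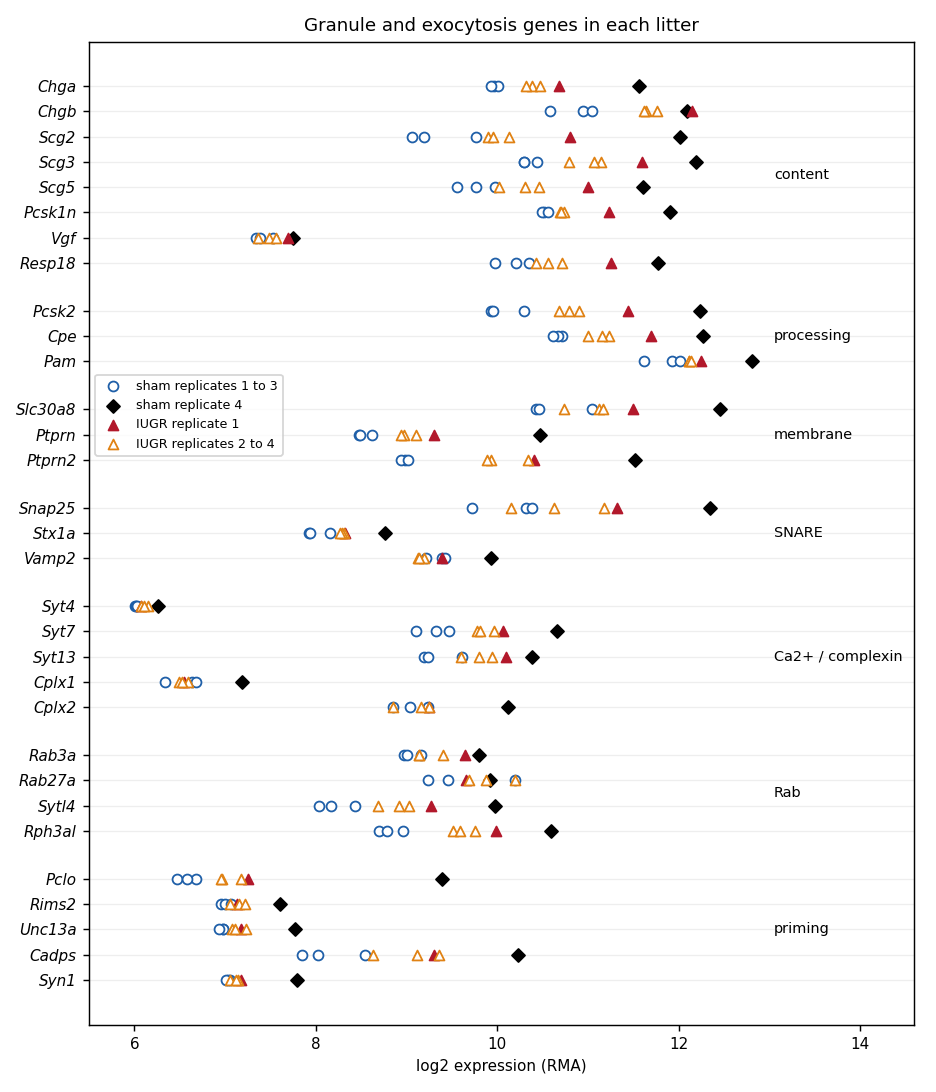
Log2 expression (RMA) of the 31 genes, 1 row per gene, grouped by role. Open blue circles are sham replicates 1 to 3, black diamonds sham replicate 4, filled red triangles IUGR replicate 1 and open orange triangles IUGR replicates 2 to 4. Sham replicate 4 lies to the right of all other litters in 29 of the 31 rows, the exceptions being Chgb and Rab27a.

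A single sham litter carried most of the spread. Sham replicate 4 was the highest of the 8 litters for 29 of the 31 genes, where this held for 19.9% of all genes. It was the highest of the 4 sham litters for 30 (28.4% of all genes) and above all 4 IUGR litters for 29 (34.3%). Its value lay above the mean of the other 3 sham litters by a median of 1.38, from 0.24 for Syt4 to 2.81 for Pclo, against a median of -0.03 over all genes. The excess was over 1 for 20 of the 31 genes and for 2.85% of all genes, and over 2 for 6 of the 31 (Scg2, Pcsk2, Ptprn2, Snap25, Pclo and Cadps) and 0.324% of all. Rescaling left this median excess at 1.55 (quantile), 1.67 (cyclic loess) and 1.50 (centred medians). Whether this litter differs in its tissue or its handling was not tested. The SD between sham litters exceeded that between IUGR litters for all 31 genes and for 72.7% of all genes. The median SD of the 31 was 0.70 over the 4 sham litters, 0.13 over sham replicates 1 to 3 and 0.21 over the 4 IUGR litters. Among IUGR litters, replicate 1 was the highest for 24 of the 31 genes, where this held for 22.6% of all genes. A litter far from the other 3 of its group, by Dixon's criterion for outliers, was found for 13 of the 31 genes in sham (9.6% of all genes) and 1 in IUGR (5.4%).

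**Figure D2:**
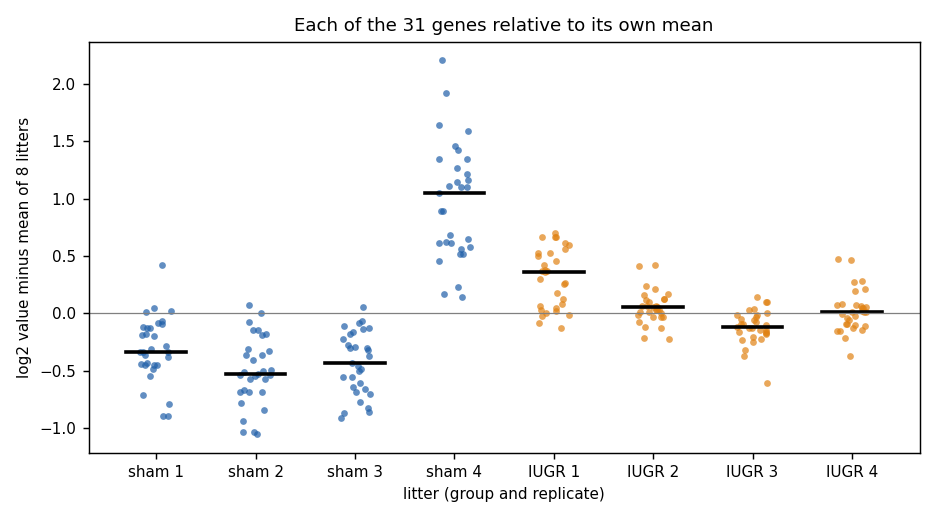
Log2 value of each of the 31 genes minus its own mean over the 8 litters, 1 point per gene and litter, with a bar at the median. All 31 points of sham replicate 4 lie above 0, with a median of 1.05, while sham replicates 1 to 3 have medians of -0.33, -0.52 and -0.43 and IUGR replicate 1 has the next highest median, 0.36.

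Granule content came first in the order of roles, with 8 genes. Chgb encodes chromogranin B, an acidic granin that condenses in the granule core, and had the largest difference of the 31 genes. Its values were 10.58, 10.94, 11.05 and 12.09 in sham replicates 1 to 4 and 12.15, 11.64, 11.62 and 11.76 in IUGR replicates 1 to 4. All IUGR litters were above sham replicates 1 to 3, and sham replicate 4 lay inside the IUGR range. The difference was 0.63 ± 0.30 (SE, n = 4 litters per group; limma adjusted p = 0.227). Chga, the related chromogranin A, read 9.97, 10.01, 9.93 and 11.56 in the sham litters and 10.68, 10.38, 10.32 and 10.47 in the IUGR litters. Sham replicate 4 was here above every IUGR litter, and the difference was 0.10 ± 0.35 (SE). Secretogranin II, from Scg2, varied more than either. It stood at 9.76, 9.05, 9.20 and 12.02 in the sham litters and at 10.80, 10.13, 9.90 and 9.95 in the IUGR litters, a difference of 0.19 ± 0.62 (SE). Its sham SD of 1.38 was over 3 times its IUGR SD of 0.42.

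Scg3, whose product ties granin aggregates to the granule membrane, lay between 10.29 and 10.43 in sham replicates 1 to 3, at 12.19 in sham replicate 4 and between 10.80 and 11.59 in the IUGR litters. Scg5 encodes 7B2, the chaperone of the convertase from Pcsk2, and Pcsk1n encodes proSAAS, an inhibitor of the convertase from Pcsk1. Scg5 was 9.56 to 9.98 in sham replicates 1 to 3, 11.60 in sham replicate 4 and 10.02 to 11.00 in IUGR. For Pcsk1n these levels were 10.49 to 10.56, 11.90 and 10.69 to 11.23. Resp18, a luminal protein of endocrine granules, lay at 9.97 to 10.35, 11.77 and 10.43 to 11.25 in the same order. The fitted differences of the 4 genes were 0.35, 0.22, -0.03 and 0.17, each within its SE. Vgf, a neuropeptide precursor, was the exception of the group. It read 7.53, 7.34, 7.39 and 7.74 in the sham litters and 7.70, 7.49, 7.37 and 7.56 in the IUGR litters, so that all 8 litters lay within a narrow band, with a difference of 0.03 ± 0.12 (SE). The 3 genes with the full cAMP response element did not share a pattern of size, the excess of sham replicate 4 being 2.68 for Scg2, 0.33 for Vgf and 0.76 for Syn1. Their mean levels lay at percentiles 73.4, 33.8 and 29.5 of all genes in that order, so these excesses are not compared at like signal.

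Of the processing enzymes, Pcsk2, Cpe and Pam were measured. Pcsk2, the convertase that releases glucagon from its precursor, stood at 10.29, 9.94, 9.96 and 12.24 in the sham litters. In the IUGR litters it stood at 11.44, 10.90, 10.68 and 10.79, above sham replicates 1 to 3 and below sham replicate 4, and the difference was 0.35 ± 0.50 (SE). Cpe, which trims basic residues after the convertases, had 10.72, 10.67, 10.62 and 12.27 in sham and 11.70, 11.24, 11.00 and 11.15 in IUGR. Its IUGR litters also lay above sham replicates 1 to 3 and below sham replicate 4. Pam, which amidates peptide ends, had the smallest difference of the 3 (0.06 ± 0.23, SE): 11.93, 11.62, 12.01 and 12.81 in sham and 12.25, 12.11, 12.11 and 12.14 in IUGR. Its 4 IUGR litters lay within an SD of 0.07, against 0.51 in sham.

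The granule membrane was represented by a zinc transporter and a pair of phosphatase-like proteins. Slc30a8, the transporter that loads zinc into insulin granules, read 11.05, 10.43, 10.46 and 12.46 in sham and 11.49, 11.13, 10.74 and 11.16 in IUGR. Here sham replicate 1 overlapped the IUGR litters as well, and the difference was 0.03 ± 0.43 (SE). Ptprn and Ptprn2 encode IA-2 and phogrin, transmembrane granule proteins known as autoantigens of type 1 diabetes. Ptprn2 was even in sham replicates 1 to 3 at 8.98, 8.94 and 9.01, reached 11.52 in sham replicate 4, and lay at 10.40, 9.93, 9.88 and 10.34 in IUGR. The IUGR litters thus formed a middle band with wide gaps on both sides, and the difference on all arrays was 0.52 ± 0.56 (SE). Ptprn had the same bands at a smaller distance, 8.48 to 8.62 in sham replicates 1 to 3, 8.94 to 9.31 in IUGR and 10.47 in sham replicate 4.

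The SNARE genes had differences of both signs. Snap25, a plasma membrane SNARE, was among the most variable, at 10.31, 9.72, 10.38 and 12.34 in sham and 11.32, 11.18, 10.15 and 10.63 in IUGR. Its groups overlapped even without sham replicate 4. Stx1a, its syntaxin partner, was 8.15, 7.92, 7.94 and 8.76 in sham and 8.33, 8.30, 8.28 and 8.26 in IUGR, with an IUGR SD of 0.03. Vamp2, the SNARE on the granule itself, was lower in IUGR. It read 9.39, 9.43, 9.22 and 9.93 in sham and 9.39, 9.13, 9.19 and 9.14 in IUGR, so that IUGR replicate 1 overlapped the sham litters while the other 3 lay below all of them. The difference was -0.28 ± 0.15 (SE, adjusted p = 0.277), the most negative of the 31 genes. It was -0.50 after quantile normalization, with an unadjusted p of 0.031 and an adjusted p of 0.187, and its adjusted p over all alternatives ran from 0.104 to 0.648.

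Among calcium sensors, Syt7, a high-affinity calcium sensor of insulin granules, lay at 9.32, 9.10, 9.47 and 10.66 in sham and at 10.07, 9.78, 9.80 and 9.96 in IUGR. Syt13, an atypical synaptotagmin, was 9.61, 9.20, 9.23 and 10.38 in sham and 10.10, 9.94, 9.60 and 9.80 in IUGR. In both genes the differences, 0.27 ± 0.31 and 0.26 ± 0.26 (SE), were no larger than their errors. Syt4 was dim and flat, from 6.01 to 6.26 over all 8 litters, and belonged to the 6 of the 31 genes among the 30% dimmest on the arrays. The complexins, which bind assembled SNARE complexes, had negative differences on all arrays, within the error for Cplx2 (-0.19 ± 0.26) and about 1 SE from 0 for Cplx1 (-0.17 ± 0.16, SE). Cplx1, also dim, was 6.34 to 6.67 in sham replicates 1 to 3, 7.19 in sham replicate 4 and 6.49 to 6.59 in IUGR. Cplx2 was 8.85 to 9.24, 10.11 and 8.85 to 9.25 in the same order, so that its IUGR litters covered the same range as sham replicates 1 to 3.

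Rab genes and their effectors had positive differences, none past the threshold. Rab3a, a granule Rab, was 9.16, 8.97, 9.00 and 9.80 in sham and 9.64, 9.40, 9.14 and 9.14 in IUGR. Rab27a, which with its effectors docks insulin granules, was the 1 gene whose highest sham litter was not replicate 4: it read 10.20, 9.23, 9.46 and 9.92 in sham and 9.65, 10.19, 9.88 and 9.68 in IUGR. Both effectors varied more between sham litters (SD 0.90 and 0.89) than the Rab genes (0.39 and 0.44). Sytl4, which encodes granuphilin, was 8.04 to 8.43 in sham replicates 1 to 3, 9.98 in sham replicate 4 and 8.68 to 9.27 in IUGR. Rph3al, which encodes Noc2, was 8.70, 8.96, 8.79 and 10.59 in sham and 9.99, 9.52, 9.59 and 9.76 in IUGR, with a difference of 0.45 ± 0.40 (SE).

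Among active zone and priming genes the excess of sham replicate 4 ranged from 0.60 for Rims2 to 2.81 for Pclo, with a median of 0.81. Pclo encodes piccolo, a large scaffold of release sites, and was at 6.47, 6.68 and 6.58 in sham replicates 1 to 3, at 9.39 in sham replicate 4 and at 7.25, 6.97, 6.95 and 7.18 in IUGR. Cadps, a priming factor of dense-core granules, was 8.55, 7.85, 8.02 and 10.22 in sham and 9.30, 9.12, 8.63 and 9.36 in IUGR. Rims2, Unc13a and Syn1, for an active zone protein, a priming factor and synapsin I, were dim. Over sham replicates 1 to 3 and the 4 IUGR litters they ranged from 6.95 to 7.21, from 6.93 to 7.23 and from 7.01 to 7.17, with 7.61, 7.77 and 7.79 in sham replicate 4. Pclo, Rims2, Unc13a, Syn1, Syt4 and Cplx1 made up the 6 dim genes, so 25 of the 31 passed the filter on low values.

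**Figure D3:**
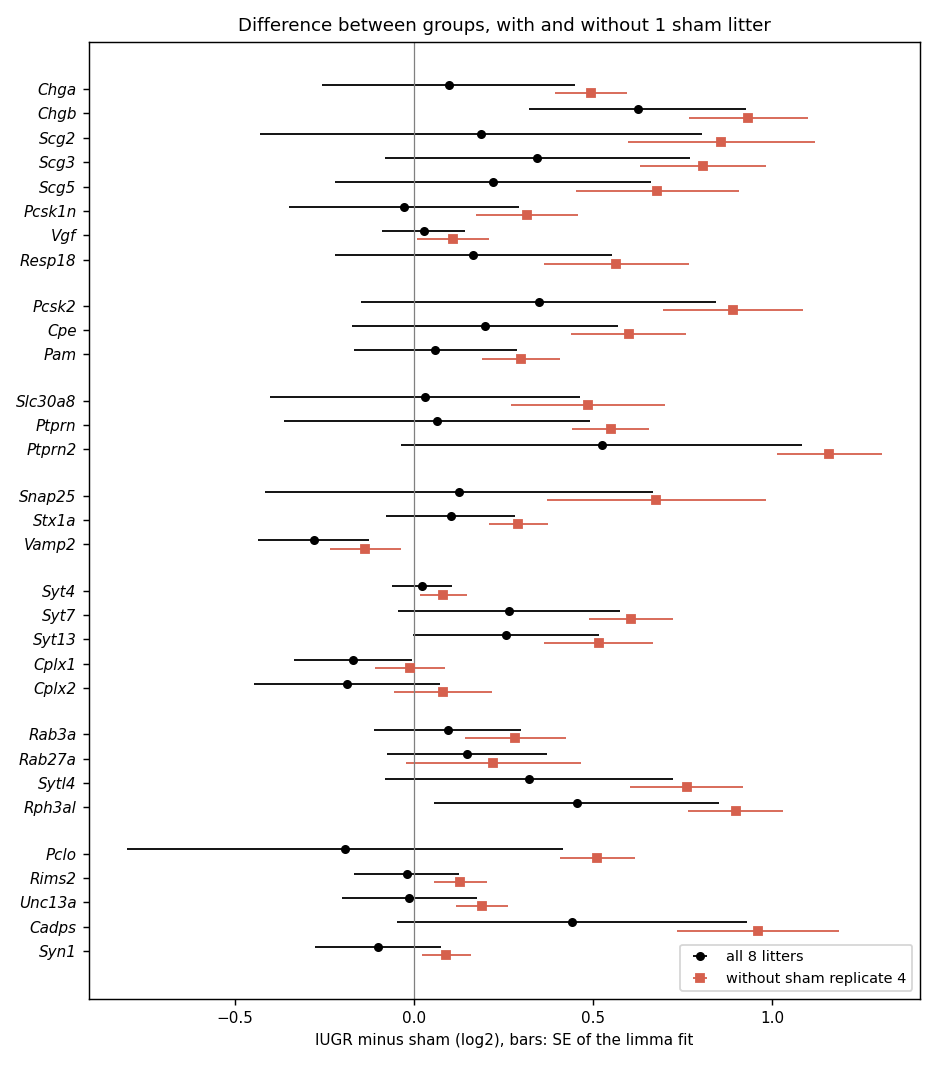
IUGR minus sham difference (log2) of the 31 genes with bars of 1 SE from the limma fit, on all 8 litters (circles) and without sham replicate 4 (squares). Without that litter 29 of the 31 squares lie above 0, Vamp2 and Cplx1 being the exceptions. The bars shorten for every gene but Rab27a, whose SE goes from 0.22 to 0.24.

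Without sham replicate 4 most of the 31 genes were higher in IUGR, and 2 passed the threshold. That litter was singled out for its high values in these same genes, so leaving it out raises their differences by construction. It was the highest litter for only 19.9% of all genes, so the shares over all genes below do not carry this selection. The counts are a description and not a test. The median difference of the 31 genes was 0.51 against 0.01 over all genes, and 29 were higher, where 52% of all genes were. Ptprn2 rose by 1.16 ± 0.15 (SE, 3 sham and 4 IUGR litters; limma adjusted p = 0.032) and Rph3al by 0.90 ± 0.13 (SE; adjusted p = 0.042). Over the alternatives tried, their adjusted p-values ran from 0.010 to 0.784 and from 0.0070 to 0.809. These 2 of 31 compare with 1.06% of all genes past the threshold and higher in that fit. In 20 of the 31 genes every IUGR litter was then above every sham litter, where 14.8% of all genes were, and 19 had an unadjusted p under 0.05 in the higher direction, against 16.7% of all genes. With quantile normalization added, a choice made after the data were seen, the median was 0.35, none of the 31 passed (0% of all genes), 17 were higher with an unadjusted p under 0.05 (11.9% of all genes) and 1, Vamp2, lower, and 19 were higher without overlap (12.1% of all genes). Quantile normalization alone left 1 of the 31 higher without overlap, Syt4, where 7.24% of all genes were.

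By role, the median difference without sham replicate 4 was 0.62 for granule content, 0.60 for processing enzymes, 0.55 for granule membrane proteins and 0.52 for Rab proteins and effectors. It was 0.29 for SNARE genes, 0.19 for active zone and priming genes and 0.08 for synaptotagmins and complexins. These last 2 roles hold the 6 dim genes, and of their 4 brighter members Syt7 (0.61), Syt13 (0.52) and Cadps (0.96) lay in the range of members of the other roles, while Cplx2 was at 0.08. Of the 6 dim genes Pclo was at 0.51 and the others between -0.01 and 0.19. No test compared the roles. Chgb differed by 0.93 ± 0.17, Cadps by 0.96 ± 0.23, Pcsk2 by 0.89 ± 0.20, Scg2 by 0.86 ± 0.26 and Scg3 by 0.81 ± 0.18 (SE), with adjusted p-values of 0.054, 0.084, 0.075, 0.133 and 0.075. At the other end, Vamp2 differed by -0.13 ± 0.10, Cplx1 by -0.01 ± 0.10, Cplx2 by 0.08 ± 0.14, Syt4 by 0.08 ± 0.07 and Vgf by 0.11 ± 0.10 (SE). Leaving out any of the other 7 litters instead gave medians between -0.02 and 0.16, with 0 genes past the threshold in each and at most 1 without overlap.

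Further genes of the same pathway were read from 7 lists, with 128 of 147 genes measured. Of the 128, 91 were higher in IUGR (55.1% of all genes), with a median over the set of 0.13, and 1 passed (0.248% of all genes). In 18 the IUGR litters were higher without overlap, where 10% of all genes were. Without sham replicate 4 that count was 39, where 14.8% of all genes were. The gene that passed was Pick1, a BAR-domain protein of granule formation. It read 8.64, 8.97, 8.85 and 8.96 in sham and 10.06, 9.83, 9.74 and 10.41 in IUGR, clear of overlap, and rose by 1.15 ± 0.16 (SE; adjusted p = 0.043). Sham replicate 4 lay within the range of the other sham litters for this gene. Its call was lost with each rescaling (quantile, cyclic loess, centred medians) and when any litter but sham replicate 1 or 4 was left out. On leaving out a litter the difference lay between 1.02 and 1.24, and over all alternatives its adjusted p ran from 0.0014 to 0.226. Of the same list of granule formation genes, 13 of 16 were higher, and Arfip2, an arfaptin of the trans-Golgi network, differed by 0.64 ± 0.12, and the Golgi SNARE gene Stx16 by 0.40 ± 0.09 (SE).

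None of the remaining lists held a gene past the threshold on all arrays. Of all genes 0.248% passed and 55.1% were higher, so lists this short would seldom hold a call. Of 16 Rab genes, effectors and motors 12 were higher, led by Rab27b (0.89 ± 0.18), Rab3d (0.64 ± 0.15) and Rab3ip (0.58 ± 0.13, SE), of which Rab27b and Rab3d are known also from zymogen granules of acinar cells. Rab27b was 8.11 to 8.56 in sham and 9.02 to 9.66 in IUGR, with sham replicate 4 the lowest litter. Of 18 further processing and membrane genes 13 were higher, with Qpct, the glutaminyl cyclase, at 1.23 ± 0.22, Cyb561, the granule membrane cytochrome, at 0.61 ± 0.16 and the nucleotide transporter gene Slc17a9 at 0.45 ± 0.20 (SE). Of 17 calcium sensors and complexins 12 were higher, with Syt8 at 1.33 ± 0.32, Doc2a at 0.85 ± 0.24 and Syt15 at 0.65 ± 0.17 (SE).

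The SNARE partner, proton pump and active zone lists also held no gene past the threshold, where 0.248% of all genes passed and 55.1% were higher. Of 17 SNARE partners 14 were higher (10 of 17 without sham replicate 4), with Nsf, the ATPase that takes SNARE complexes apart, at 0.36 ± 0.13, Stxbp2 at 0.35 ± 0.12 and Vamp7 at 0.35 ± 0.13 (SE). Of 21 subunits of the vacuolar proton pump 16 were higher by a median over the list of 0.10, with Atp6v0e2 at 0.63 ± 0.16, Atp6v0b at 0.28 ± 0.12 and Atp6v1g2 at -0.33 ± 0.14 (SE). Of 23 active zone and vesicle genes 11 were higher and 12 lower, from -0.83 to 0.59, with Sypl1 at 0.41 ± 0.14, Sv2a at -0.34 ± 0.14 and Sypl2 at -0.18 ± 0.09 (SE). The mean of the 128 genes was 9.04 in sham replicate 4, 8.83 to 8.96 in replicates 1 to 3 and 9.04 to 9.13 in IUGR, and their median excess in that litter was 0.09. Without sham replicate 4, 5 of the 128 passed, all higher, where 1.06% of all genes did: Pick1, Cyb561, Atp6v0e2, and Rab3c and Rimbp2, which were chosen for mention by these values. Rab3c, a further granule Rab, and Rimbp2, which links release sites to calcium channels, were highest in sham replicate 4 (8.78 and 9.54).

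Transcription factors known to act on granule genes were read as a list of 11, of which 9 were measured. All 9 were higher in IUGR (55.1% of all genes) and none passed (0.248% of all genes). The smallest p-values were those of Atf1 of the CREB family (0.30 ± 0.09) and the endocrine factors Rfx6 (0.95 ± 0.38) and Isl1 (0.67 ± 0.28, SE). Rfx6 read 8.60, 8.23, 8.23 and 9.99 in sham and 10.00, 9.74, 9.47 and 9.62 in IUGR, so that sham replicate 4 lay among the IUGR litters and not above them. That litter was the highest for 3 of the 9 genes. Neurod1 was at 11.72 there, against at most 11.22 in IUGR, and Pax6 at 10.96, against at most 10.82. Its median excess over the other sham litters was 1.07 for the 9 genes, so leaving it out raises their differences partly by construction. Without sham replicate 4, Rfx6 (1.36), Neurod1 (1.09), Pax6 (0.98) and Isl1 (0.97) rose, at adjusted p-values of 0.032 to 0.042, against 0.166 to 0.398 on all arrays, and 1.06% of all genes passed as higher. In that fit 7 of the 9 were higher and 2 lower, the lowest at -0.02. The mean of the 9 genes was 10.10 in sham replicate 4, 9.34 to 9.56 in the other sham litters and 9.94 to 10.12 in IUGR.

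**Figure D4:**
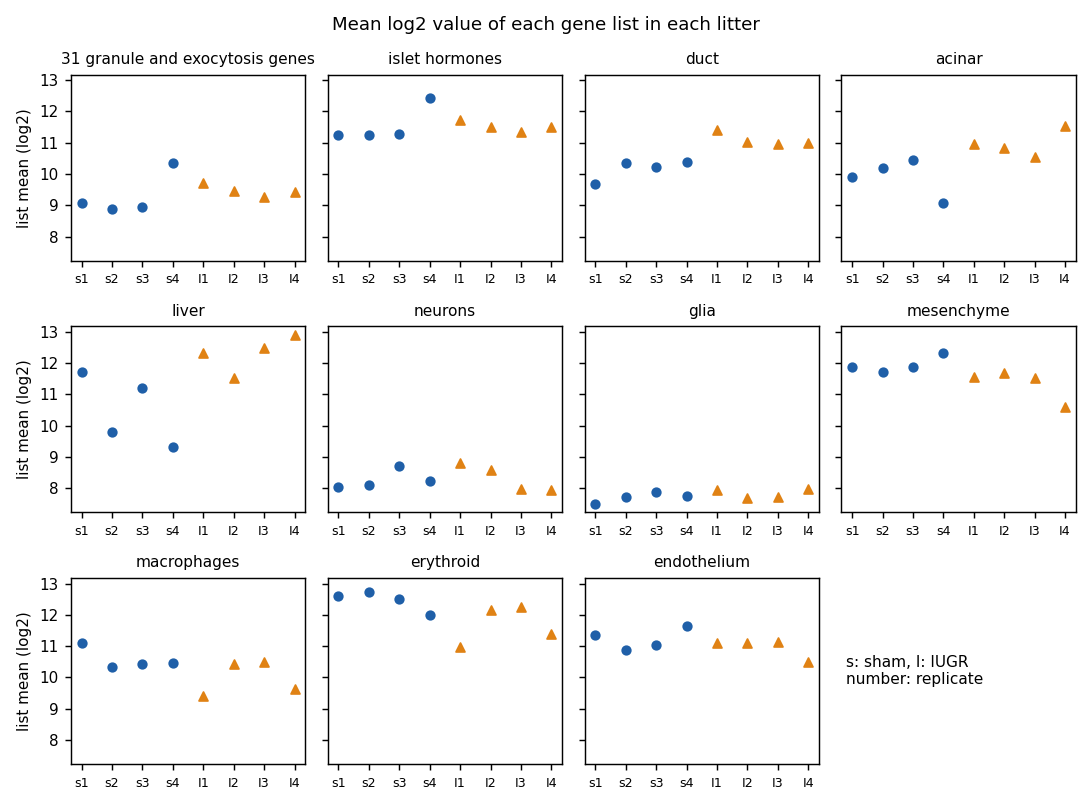
Mean log2 value of the 31 genes and of 10 cell type marker lists in each litter, sham replicates 1 to 4 as circles (s1 to s4) and IUGR replicates 1 to 4 as triangles (I1 to I4). Sham replicate 4 is the highest litter for the 31 genes (10.37) and for islet hormones (12.42) and the lowest for acinar (9.06) and liver markers (9.31).

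Of the cell type marker lists, the hormone, mesenchyme and endothelial means were highest in sham replicate 4, as the mean of the 31 genes was. All 8 hormone genes were highest in sham replicate 4. Sst was at 12.83 there, at 10.27 to 10.49 in sham replicates 1 to 3 and at 10.76 to 11.64 in IUGR, and Iapp at 13.28, 11.20 to 11.56 and 11.19 to 12.11 in that order. Ins1, Ins2 and Gcg exceeded the other sham litters by 0.66, 0.45 and 0.50. Ins1 and Ins2 were at least 13.15 in every litter, close to the highest value of any probe set (14.15 to 14.44 per array). The group differences on all arrays were -0.20 ± 0.18 for Ins1, -0.14 ± 0.12 for Ins2, 0.08 ± 0.13 for Gcg and 0.10 ± 0.55 (SE) for Sst, and none passed. Without sham replicate 4 these differences were -0.03 ± 0.12, -0.03 ± 0.08, 0.20 ± 0.08 and 0.71 ± 0.20 (SE), and again none passed. In that fit 5 of the 8 hormone genes were higher and 3 lower. Only Pyy passed among them (0.81, limma adjusted p = 0.032), where 1.06% of all genes passed as higher.

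Acinar markers (17 measured) had a mean of 9.06 in sham replicate 4, 9.92 to 10.45 in the other sham litters and 10.53 to 11.52 in IUGR. Liver markers (17) had 9.31, 9.79 to 11.71 and 11.53 to 12.90 in that order. Duct markers (10) had 10.39, 9.68 to 10.34 and 10.95 to 11.40, and all 10 were higher in IUGR. In sham replicate 4 the mesenchyme mean was 12.32 and the endothelial mean 11.63. The part of these cell types in the differences above was not tested.

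Nerve and chromaffin cells also express many of the 31 genes. None of the 11 neuron markers was highest in sham replicate 4, whose neuron mean of 8.24 lay inside the range of the other litters (7.94 to 8.80), and its mean of 5 glia markers, 7.77, did too (7.50 to 7.99). IUGR replicate 1 had the highest neuron mean, 8.80, and the lowest macrophage (9.41) and erythroid means (10.98). Sham replicate 3 stood apart in Th and Dbh, enzymes of catecholamine synthesis, at 10.16 and 9.39, with 8.09 and 7.92 as the highest of the other 7 litters, and in the glia marker S100b, at 8.32 against at most 7.02. Those 3 genes were singled out after their values were seen. The neuron mean of sham replicate 3, 8.71, was the highest of the 4 sham litters. That mean includes Th and Dbh, so it partly repeats their values. Granins are also made by chromaffin cells. Of Chga, Chgb, Scg2, Scg3 and Scg5, only Chgb was higher in sham replicate 3 than in both sham replicates 1 and 2. Chga was 9.93 there, the lowest of the 8 litters but close to 9.97 and 10.01 in sham replicates 1 and 2. Chgb was 11.05 there, against 10.58 and 10.94 in sham replicates 1 and 2. Scg2 was 9.20 (9.76 and 9.05 in replicates 1 and 2), Scg3 10.30 (10.43 and 10.29) and Scg5 9.56 (9.98 and 9.76).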

How the data were processed

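The deposited table holds log2 expression values per probe set, made by the authors with RMA per the submitters' processing notes. The sources used here do not give its software or version. Probe sets were named through the platform annotation and RefSeq gene identifiers. Of 29214 probe sets 15310 had exactly 1 gene, 323 several and 13581 none, and the brightest probe set per gene left 14506 genes. Both probe sets of Stx1a hold the same values. The groups were fitted with limma 3.58.1 (R 4.3.3, lmFit and eBayes, no covariate, two-sided, Benjamini-Hochberg adjustment over all 14506 genes). SE are those of that fit and SD are between litters. The members, lists and tests were chosen with earlier results of these data known. All measured members were named, with the 3 genes of smallest p of each other list and 4 hormone genes. Outside this rule, Neurod1, Pax6, Pyy, Rab3c and Rimbp2 were named for passing without sham replicate 4. Iapp, Th, Dbh and S100b were named after their values were seen. The test was tried on simulated data. Alternatives covered scaling (quantile, cyclic loess, median centring), dropping the 30% dimmest genes, eBayes with trend and robust options, weighting arrays, blocking on replicate number, how probe sets are combined, and omitting 1 litter at a time. Arrays have no read depth, so their number limits the precision. Promoters are RefSeq's (GRCr8). Dibasic cleavage sites were planned and not analysed here.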

Additional observations from a re-analysis of the deposited data

Results flagged for a closer look

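In groups of 4 litters, a value was taken as far from the rest when its gap to the nearest other litter, as a share of the group's range, exceeded Dixon's critical value for 4 values. Chance gives about 1 in 20 groups, and of all genes 9.6% met this in the sham litters and 5.4% in the IUGR litters. Among the 31 granule and exocytosis genes 13 met it in the sham litters, each with sham replicate 4 as the highest. The gap was 0.948 of the range for Chga, 0.926 for Scg3, 0.951 for Pcsk1n, 0.844 for Pcsk2, 0.94 for Cpe, 0.931 for Ptprn and 0.972 for Ptprn2. For Syt4 it was 0.926, for Rph3al 0.86, for Pclo 0.93, for Rims2 0.835, for Unc13a 0.95 and for Syn1 0.938. In the IUGR litters Pcsk1n met it with IUGR replicate 1 as the highest (0.925).

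The means of the gene lists repeated this, again with sham replicate 4 as the highest. The gap was 0.868 of the range for all 31 genes, 0.903 for granule content, 0.859 for processing enzymes, 0.879 for granule membrane proteins, 0.851 for synaptotagmins and complexins, 0.934 for active zone and priming genes and 0.968 for islet hormones. Ins2 (0.952), Sst (0.916) and the proton pump gene Atp6v0e2 (0.862) were also highest in that litter, and Rab3ip was lowest in it (0.863). In the IUGR litters, replicate 4 was the highest for Sypl2 (0.963) and the lowest for the mesenchyme (0.837) and endothelial (0.94) marker means.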

How the results depend on the processing

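The labels do not say whether the replicate numbers pair the litters. Correlations of same-numbered deviations were -0.43, 0.10, -0.12 and -0.13, and those of other pairs ran from -0.17 to 0.38. So few litters cannot settle whether they were paired. With the replicate number as a block, 0 of all genes passed (2715 with unadjusted p under 0.05), Pick1 had an adjusted p of 0.226, and the median of the 31 genes stayed 0.10. Where 36 genes passed on all arrays (34 higher, 2 lower), 0 passed with quantile normalization (3305 with unadjusted p under 0.05), 0 with cyclic loess (3290), 1 with median centring, 3 over all probe sets, 59 without the 30% dimmest genes and 6358 with array weights. Leaving out each litter gave 0 to 2738, the latter without sham replicate 1, 157 without sham replicate 4, 43 without IUGR replicate 2, 2 without IUGR replicate 4 and 0 otherwise. Without sham replicate 4 and with quantile normalization, 0 passed (3558 with unadjusted p under 0.05). Of genes with an unadjusted p under 0.05, 58.9% were higher on the deposited scale, 45.9% with quantile scaling, 47.6% with cyclic loess and 13.4% with centred medians.

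Of the 31 genes, 16 passed with array weights, all higher, where 26.4% of all genes passed and were higher. The weights of sham replicates 1 to 4 were 0.265, 1.03, 7.82 and 0.196. Leaving out each litter gave 0 to 2 of the 31 genes past the threshold and 0 to 20 without overlap. Of all 14506 genes, 0 to 2738 passed in those fits and 2444 to 5686 showed no overlap. Syt4 alone showed no overlap after quantile normalization (1 gene) or cyclic loess (1), and 19 did without sham replicate 4 and with quantile normalization. The median of the 31 was -0.01 with quantile normalization, -0.0030 with cyclic loess, -0.13 with median centring, 0.17 without the 30% dimmest genes, 0.45 with array weights, 0.35 without sham replicate 4 and with quantile normalization, and -0.02 to 0.51 on leaving out a litter. The trended prior and the mean of probe sets kept the counts for the 31 genes. Some differences changed sign, and the cause was not tested. Array weights turned Cplx2 (0.12), Pclo (0.40), Pcsk1n (0.24), Rims2 (0.054), Syn1 (0.088) and Unc13a (0.17). Cyclic loess turned Chga (-0.081), Pam (-0.019), Ptprn (-0.14), Rab27a (-0.057), Rab3a (-0.12), Rims2 (0.0035), Scg2 (-0.0049), Slc30a8 (-0.11), Snap25 (-0.032), Sst (-0.047), Stx1a (-0.037), Unc13a (0.010) and Vgf (-0.0030). Median centring turned Chga (-0.13), Cpe (-0.031), Gcg (-0.15), Pam (-0.17), Ptprn (-0.17), Rab27a (-0.082), Rab3a (-0.14), Resp18 (-0.064), Scg2 (-0.042), Scg5 (-0.010), Slc30a8 (-0.20), Snap25 (-0.10), Sst (-0.13), Stx1a (-0.13), Syt4 (-0.21) and Vgf (-0.20). Quantile normalization turned Chga (-0.082), Pam (-0.010), Ptprn (-0.19), Rab27a (-0.076), Rab3a (-0.14), Resp18 (-0.00081), Scg2 (-0.014), Slc30a8 (-0.11), Snap25 (-0.037), Sst (-0.027), Stx1a (-0.11) and Vgf (-0.041). Leaving out sham replicate 4 with quantile normalization turned Cplx1 (0.11), Pclo (0.61), Pcsk1n (0.21), Rims2 (0.16), Syn1 (0.12) and Unc13a (0.23). Leaving out 1 litter at a time turned the sign, over the ranges given, for Chga (-0.049 to 0.50), Cplx2 (-0.34 to 0.081), Gcg (-0.0015 to 0.20), Pam (-0.10 to 0.30), Pclo (-0.46 to 0.51), Pcsk1n (-0.16 to 0.32), Ptprn (-0.11 to 0.55), Rab27a (-0.0073 to 0.31), Rab3a (-0.0096 to 0.28), Resp18 (-0.034 to 0.57), Rims2 (-0.087 to 0.13), Scg2 (-0.13 to 0.86), Scg5 (-0.0012 to 0.68), Slc30a8 (-0.19 to 0.49), Snap25 (-0.19 to 0.68), Sst (-0.15 to 0.71), Syn1 (-0.17 to 0.091), Syt4 (-0.00064 to 0.083), Unc13a (-0.089 to 0.19) and Vgf (-0.029 to 0.11). The number of arrays limits the precision.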
